A study of Mus musculus with 12 samples.

Results

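The genes described here are 8 genes known from hepatocytes around the portal vein: Gls2, Hal, Sds, Cyp2f2, Hsd17b13, Aldh1b1, Cdh1 and Pigr. They were chosen by name as known markers of the portal side of the liver lobule. All 8 were found among the 28036 genes of the table, and all 8 were among the 13988 genes with enough counts to be tested. The libraries came from livers of C57BL/6J mice in 4 groups, each with 3 replicates. Control mice ate normal chow, and mice of the MASH group were fed a high-fat diet to model metabolic dysfunction-associated steatohepatitis, a fatty and inflamed liver. The EE group had the same high-fat model and then 100 mg/kg of Eleutheroside E, a lignan glycoside from plants, given by mouth. The resmetirom group had the model and then 3 mg/kg by mouth of resmetirom, which activates the beta form of the thyroid hormone receptor. Dosing began after 8 weeks of the model and lasted 4 weeks, over which the control and MASH groups were given the vehicle, 0.5% CMC-Na. Sex and age of the mice were not given in the labels used here, and no label described a transgene or other allele.

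Blood enters the liver lobule at the portal vein and leaves at the central vein, and hepatocytes differ in gene expression along this path. Portal hepatocytes meet blood rich in oxygen and in hormones such as glucagon, and are known for amino acid breakdown, urea synthesis and gluconeogenesis. Central hepatocytes receive Wnt signals from the central vein and are known for glutamine synthesis and for many cytochrome P450 enzymes. The 8 genes fall into groups by role. Gls2, Hal and Sds encode enzymes of amino acid breakdown. Cyp2f2, Hsd17b13 and Aldh1b1 encode oxidising enzymes of foreign compounds, lipid droplets and aldehydes. Cdh1 and Pigr encode proteins of the cell surface.

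Library totals ran from 17297864 to 21793311 counts. Control 1 stood apart from the other libraries, since genes of the mitochondrial genome held 35.4% of its counts and 2.40% to 4.38% of the counts of the rest. Resmetirom 2 had 35.7% of its counts in major urinary protein genes, against 3.33% to 16.0% in the others. Levels are CPM, the count of a gene as a share of its library, put on a common scale with edgeR's TMM factors, and ± is the SD of n = 3 livers. Fold changes are log2 values with their SE from edgeR's quasi-likelihood test, and a gene changed where its Benjamini-Hochberg adjusted p over all 13988 tested genes lay below 0.05. Every adjusted p is from this test unless another is named. Groups are called apart where their ranges over 3 livers did not overlap. Because the libraries came from whole liver tissue, fewer cells of a type and less RNA per cell cannot be told apart. Genes of hepatocytes in general were abundant in every liver, with Alb at 38771 CPM or more, but their levels were not the same in all groups. The 9 markers of this list that were found summed to 94164 to 164930 CPM in control, 81579 to 96717 in MASH, 109090 to 116570 in EE and 64289 to 102120 in resmetirom livers. Control 1 also differed from control 2 and 3 in markers of other cells. Erythroid markers summed to 3746 CPM in control 1, against 482 and 565 CPM. Plasma and B cell markers summed to 71.3 CPM, against 15.7 and 14.3 CPM. Kupffer cell markers summed to 72.6 CPM, against 345 and 298 CPM, and endothelial markers to 65.7 CPM, against 205 and 229 CPM. Their part in the values of control 1 was not tested. In bulk tissue the position of a transcript in the lobule was not measured.

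Divided by the length of their exons, the levels of the 8 genes spanned a wide range. In control livers Cyp2f2 was at 408 ± 205 and Pigr at 349 ± 78.5 CPM per kb. Gls2 (108 ± 18.6), Sds (94.5 ± 31.7), Hsd17b13 (91.4 ± 46.7) and Hal (56.9 ± 1.96) followed, then Aldh1b1 at 23.9 ± 8.65 and Cdh1 at 7.83 ± 0.623 CPM per kb. Cyp2f2 had the highest group mean per kb in all 4 groups. Cdh1 had the lowest in each, and reached 20.2 ± 5.08 CPM per kb in resmetirom livers, next to 24.6 ± 28.7 for Aldh1b1. Summed over the 8 genes, control livers held 3267 to 3446 CPM, MASH livers 2416 to 2755, EE livers 3030.5 to 3170 and resmetirom livers 2502 to 2922. These sums rest mainly on Pigr and Cyp2f2, the most abundant members. All control and all EE livers lay above all MASH livers in this sum, and resmetirom livers overlapped the MASH range.

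**Figure D1:**
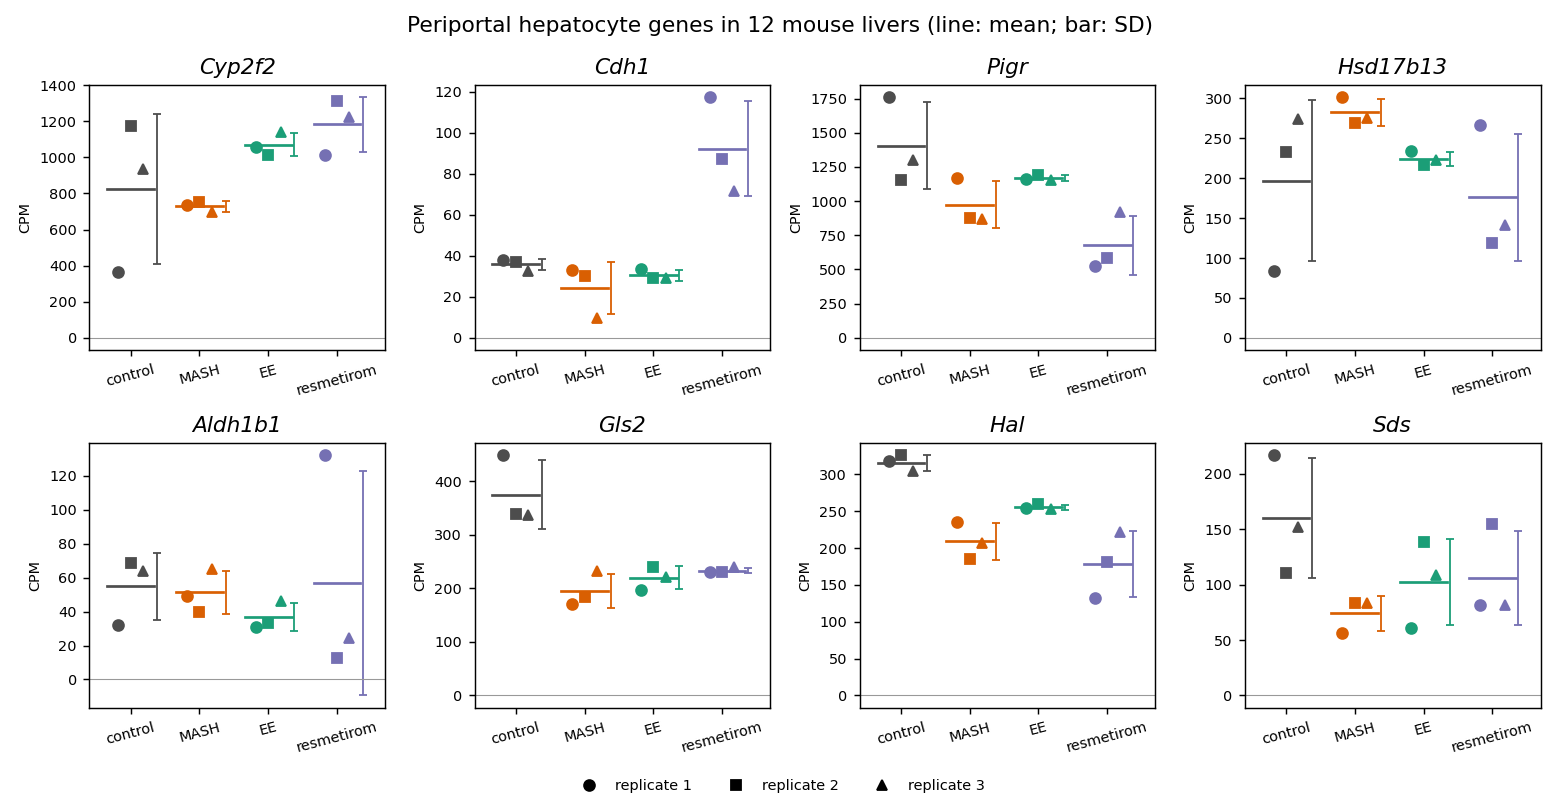
Level of each of the 8 genes in CPM (vertical axis, starting scale of each panel includes 0) in the 12 livers, by group on the horizontal axis. Points are single livers with a shape for each replicate number, lines are means and bars the SD; Cdh1 lies between 71.8 and 117 CPM in resmetirom livers and between 9.76 and 38.1 elsewhere.

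Gls2 encodes the liver type of glutaminase, which frees ammonia from glutamine for the urea cycle. Its level was 449.8, 339.6 and 336 CPM in control 1, 2 and 3, and 170.4, 183 and 232 CPM in MASH 1, 2 and 3. EE livers held 198, 241 and 221 CPM, and resmetirom livers 231, 229.7 and 239 CPM. All control livers lay above all 9 livers of the high-fat groups, which overlapped one another. The order of means was control, resmetirom, EE and MASH, and control and resmetirom were the neighbours that were apart. The log2 fold change of MASH against control was −0.94 ± 0.20 (adjusted p = 0.244). Without control 1 it was −0.78 (adjusted p = 0.357). DESeq2 called Gls2 lower in MASH than in control (adjusted p = 0.000658), as it called 0.626% of all genes in that comparison.

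Hal encodes histidase, which turns histidine into urocanate in the opening step of histidine breakdown. Control livers held 318, 326 and 304 CPM of Hal, and MASH livers 235, 185 and 207 CPM. The EE livers lay close together at 255, 259 and 253 CPM, while resmetirom livers held 132, 181 and 221 CPM. Control livers were the highest, EE livers stood between control and MASH without overlap on either side, and resmetirom livers overlapped the MASH livers. The log2 fold change was −0.60 ± 0.21 for MASH against control (adjusted p = 0.512) and 0.29 ± 0.21 for EE against MASH (adjusted p = 0.809).

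Sds encodes serine dehydratase, which turns serine into pyruvate and is known to be induced by glucagon. Its level was 217, 111 and 152 CPM in control 1 to 3 and 56.1, 83.4 and 83.5 CPM in MASH 1 to 3. EE livers held 60.5, 138 and 109 CPM, and resmetirom livers 81.8, 155 and 81.7 CPM. Control livers were all above the MASH livers, but in both treated groups the livers spread over more of the range, and no neighbours in the order control, resmetirom, EE and MASH were apart. The log2 fold change of MASH against control was −1.11 ± 0.37 (adjusted p = 0.510), and −0.81 without control 1 (adjusted p = 0.783).

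Cyp2f2 encodes a cytochrome P450 that oxidises naphthalene and serves as a common marker of portal hepatocytes in mice. It stood at 368, 1175 and 935 CPM in control 1 to 3, a spread of 3.20 times between the highest and the lowest liver. MASH livers held 738, 752 and 696 CPM, EE livers 1057, 1013 and 1139 CPM, and resmetirom livers 1015, 1312 and 1221.5 CPM. All EE and all resmetirom livers lay above all MASH livers, and control livers overlapped every other group. The order of means was resmetirom, EE, control and MASH, and none of its neighbours were apart. The low control value was from control 1, the library with the high mitochondrial share, whose part in this value was not tested.

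Hsd17b13 encodes a lipid droplet protein of hepatocytes that acts on retinol and other lipids. Its levels were 83.3, 233 and 275 CPM in control 1 to 3 and 302, 269 and 276 CPM in MASH 1 to 3. EE livers held 234, 217 and 223 CPM, and resmetirom livers 267, 119 and 142 CPM. MASH livers lay above all EE and all resmetirom livers, and control 3 reached into the MASH range. In the order MASH, EE, control and resmetirom, MASH and EE were the neighbours that were apart. Control 1 was the lowest of the 12 livers for this gene, as it was for Cyp2f2.

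Aldh1b1 encodes a mitochondrial aldehyde dehydrogenase that oxidises acetaldehyde and other aldehydes. Control livers held 32.1, 68.7 and 63.7 CPM, MASH livers 49.4, 39.9 and 65.0 CPM, and EE livers 31.1, 33.3 and 46.5 CPM. In the resmetirom group, resmetirom 1 held 132 CPM, resmetirom 2 held 12.7 CPM and resmetirom 3 held 24.6 CPM. Resmetirom 1 was thus the highest of the 12 livers, and resmetirom 2 and 3 were the lowest. The order of means was resmetirom, control, MASH and EE, and all neighbours overlapped. The log2 fold change of resmetirom against MASH was 0.14 ± 0.65 with all livers (adjusted p = 0.934), and −1.46 without resmetirom 1 (adjusted p = 0.102).

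Cdh1 encodes E-cadherin, the adhesion protein of adherens junctions, which portal hepatocytes and bile duct cells carry. Its levels were 38.1, 36.8 and 32.6 CPM in control 1 to 3, 33.2, 30.2 and 9.76 CPM in MASH 1 to 3 and 33.7, 29.0 and 29.0 CPM in EE 1 to 3. Resmetirom 1, 2 and 3 held 117, 87.4 and 71.8 CPM. All 3 resmetirom livers lay above the 9 others, and MASH 3 was the lowest of the 12. The order of means was resmetirom, control, EE and MASH, and resmetirom and control were the neighbours that were apart.

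Pigr encodes the polymeric immunoglobulin receptor, which carries dimeric IgA across hepatocytes and bile duct cells into bile. Control livers held 1762, 1156.5 and 1301.5 CPM, and MASH livers 1171, 873 and 872 CPM. EE livers were close together at 1162, 1195 and 1151 CPM, and resmetirom livers held 524, 583 and 920.1 CPM. The resmetirom livers lay below all control and all EE livers and overlapped the MASH range through resmetirom 3. In the order control, EE, MASH and resmetirom, no neighbours were apart.

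RefSeq promoter sequences on GRCm38.p6 matched 5 of the 8 genes, Aldh1b1, Cyp2f2, Hal, Hsd17b13 and Pigr. The 250 bases before the annotated start are shown for Cyp2f2 and Hsd17b13, whose MASH livers stood apart from both treated groups in opposite directions, and for Hal and Pigr, whose profiles over the 12 livers were the most alike of all pairs. Each is written 5′ to 3′ on the strand of its gene, and capitals mark the letters that matched a searched motif.
Cyp2f2, chr7:27119705-27119954, plus strand: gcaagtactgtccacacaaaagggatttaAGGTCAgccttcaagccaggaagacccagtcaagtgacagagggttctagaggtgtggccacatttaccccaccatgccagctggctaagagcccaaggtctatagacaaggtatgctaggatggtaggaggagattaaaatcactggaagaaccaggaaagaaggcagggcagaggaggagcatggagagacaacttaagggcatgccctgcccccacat
Hsd17b13, chr5:103977389-103977638, minus strand: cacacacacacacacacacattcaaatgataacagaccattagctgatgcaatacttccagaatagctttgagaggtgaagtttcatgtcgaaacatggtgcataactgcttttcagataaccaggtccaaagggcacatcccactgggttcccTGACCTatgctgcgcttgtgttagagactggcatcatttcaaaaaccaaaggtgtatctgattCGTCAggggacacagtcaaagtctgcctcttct
Hal, chr10:93488518-93488767, plus strand: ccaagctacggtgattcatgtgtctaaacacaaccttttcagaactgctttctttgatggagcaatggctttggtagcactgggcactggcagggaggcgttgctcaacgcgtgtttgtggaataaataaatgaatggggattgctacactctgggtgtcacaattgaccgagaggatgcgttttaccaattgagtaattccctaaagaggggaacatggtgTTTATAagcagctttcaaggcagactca
Pigr, chr1:130826434-130826683, plus strand: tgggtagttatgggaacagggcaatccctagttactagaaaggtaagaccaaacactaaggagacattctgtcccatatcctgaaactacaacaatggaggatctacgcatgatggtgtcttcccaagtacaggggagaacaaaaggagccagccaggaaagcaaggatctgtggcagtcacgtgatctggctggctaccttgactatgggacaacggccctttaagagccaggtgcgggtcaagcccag

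The motifs were searched on both strands of these windows and of all 32851 promoter windows of the same length. AGGTCA, the core of many nuclear receptor sites, stood 221 to 216 bases before the start of Cyp2f2, and on the other strand 96 to 91 bases before that of Hsd17b13. It was present in 14.0% of all windows. TGACG, which lies within the cAMP response element TGACGTCA, stood on the other strand 33 to 29 bases before the start of Hsd17b13 and in 17.8% of all windows. The whole element was in none of the 5 windows and in 1.55% of all. TATAAA, the TATA box, stood on the other strand 28 to 23 bases before the start of Hal and in 12.4% of all windows. GTTAAT, found in HNF1 sites, was in none of the 5 and in 6.43% of all. Aldh1b1 and Pigr held none of these letters in their windows. A match describes letters and does not show that a factor binds there.

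The comparison of MASH with control livers asks what the high-fat model did to these genes. There 7 of the 8 genes had a negative log2 fold change, with a median of −0.54 over the 8 and of −0.02 over all tested genes, of which 48.4% were positive. Of 9 tested markers of hepatocytes in general, 9 were negative too, with a median of −0.45, 2 of them lower without overlap and 0 passing. The amino acid enzymes Gls2, Hal and Sds were lower in all MASH than in all control livers. None of the 8 passed edgeR, in a comparison where 0.0143% of all genes passed (2 genes, and 1291 at an unadjusted p under 0.05). DESeq2 called 1 of the 8, Gls2, and limma voom called 0. The 3 genes that were apart compare with 9.41% of all genes that were apart and lower in MASH. Hsd17b13 was the exception in direction, at 0.52 ± 0.39 (adjusted p = 0.714), and at 0.16 without control 1. Cdh1 stood at −0.56 ± 0.36 (adjusted p = 0.669), Pigr at −0.53 ± 0.28 (adjusted p = 0.586), Cyp2f2 at −0.18 ± 0.34 (adjusted p = 0.884) and Aldh1b1 at −0.10 ± 0.65 (adjusted p = 0.969).

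Without MASH 3, the log2 fold change of Cdh1 was −0.17, and without control 1 that of Cyp2f2 was −0.53. With control 1 left out, the log2 fold changes of Gls2, Hal and Sds remained negative, at −0.78, −0.58 and −0.81.

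The comparison of EE with MASH livers asks what Eleutheroside E did within the model. It shares the MASH livers with the comparisons of MASH with control and of resmetirom with MASH. Low values in the MASH livers would make the former negative and both treatment comparisons positive. Opposite signs in these comparisons are thus not independent results. Cyp2f2 and Hal were higher in all EE than in all MASH livers, and Hsd17b13 was lower in all EE livers. The log2 fold change of Cyp2f2 was 0.55 ± 0.34 (a fold of 1.47, 95% interval of the log2 value −0.19 to 1.30, adjusted p = 0.780), and that of Hsd17b13 was −0.33 ± 0.39 (adjusted p = 0.877). None of the 8 passed edgeR, in a comparison where 0.00715% of all genes passed (1 gene, and 1048 at an unadjusted p under 0.05). DESeq2 and limma voom also called 0 of the 8, and 28 genes (0.210%) and 0 genes in all. Being apart and higher was shared by 16.7% of all tested genes, and being apart and lower by 15.5%. The median log2 fold change was 0.28 over the 8 genes and −0.02 over all genes, and 6 of the 8 were positive, as were 47.6% of all. The markers of hepatocytes in general had a larger median there, at 0.59, with 8 of 9 positive, 7 higher and 1 lower without overlap, and 0 passing. A difference between the 8 portal genes and hepatocyte genes in general was not tested in either comparison. The general list is not free of portal genes: it shares 2, Alb and Cps1, with the 20 other portal genes read further below.

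Livers of EE and MASH with the same replicate number were treated as pairs from correlations in these same data. The labels name no pairs, so the calls under this block depend on that choice. In a fit of these 6 livers alone with the number as a block, 4 of the 8 genes passed. Cyp2f2 rose by 0.54 ± 0.09 (edgeR with the block, adjusted p = 0.00629) and Hal by 0.29 ± 0.09 (adjusted p = 0.0475) on the log2 scale. Hsd17b13 fell by 0.34 ± 0.07 (adjusted p = 0.0138) and Aldh1b1 by 0.48 ± 0.09 (adjusted p = 0.0107). In that fit 20.7% of the 13248 tested genes passed. Without the block the 6 livers alone gave a call for Cyp2f2 (adjusted p = 0.0291), where 5.63% of genes passed, and the block in the fit of all 12 libraries gave none for the 8. The folds hardly differed between these fits, while the SE of Cyp2f2 was 0.34 with all 12 libraries and 0.10 with the 6 livers alone. The spread of the libraries left out entered the SE of the fit of all 12.

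The comparison of resmetirom with MASH livers asks what the thyroid hormone receptor beta agonist did within the model. Cdh1 rose to 92.2 ± 23.2 CPM from 24.4 ± 12.8 CPM, by 1.92 ± 0.37 on the log2 scale (a fold of 3.78, 95% interval of the log2 value 1.12 to 2.72, adjusted p = 0.0435). DESeq2 called it too, with 4.73% of all genes. It was higher in 3 of 3 resmetirom livers than in any MASH liver. It was the 1 gene of the 8 that passed, in a comparison where 0.665% of all genes passed and 0.336% passed as higher. Cyp2f2 was apart and higher at 0.70 ± 0.34 (adjusted p = 0.363), and Hsd17b13 apart and lower at −0.68 ± 0.39 (adjusted p = 0.434). Of all genes 11.6% were apart and higher in resmetirom livers, and 12.3% apart and lower. Pigr stood at −0.52 ± 0.28 (adjusted p = 0.394), with 95% limits of −1.12 and 0.08. Gls2 stood at 0.26 ± 0.20, Hal at −0.23 ± 0.21 and Sds at 0.51 ± 0.36 (adjusted p = 0.573, 0.638 and 0.532).

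The call of Cdh1 was close to the threshold. It was lost, with adjusted p from 0.0611 to 0.120, when any of control 2, control 3, MASH 1, MASH 2, MASH 3, EE 1, EE 2, EE 3, resmetirom 1 or resmetirom 2 was left out, and kept without control 1 or resmetirom 3 (adjusted p = 0.0263 and 0.0358). The log2 fold change stayed between 1.54 and 2.20 in these fits, and was lowest without MASH 3. In resmetirom and MASH livers alone Cdh1 did not pass (adjusted p = 0.170). Control 1 and resmetirom 1 were also left out together, a choice made after the data were seen. Then Cdh1, Cyp2f2, Hsd17b13 and Aldh1b1 passed, at 1.70, 0.79, −1.12 and −1.46 (adjusted p = 0.0259, 0.0140, 0.00373 and 0.0171), and 14.0% of all genes did.

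**Figure D2:**
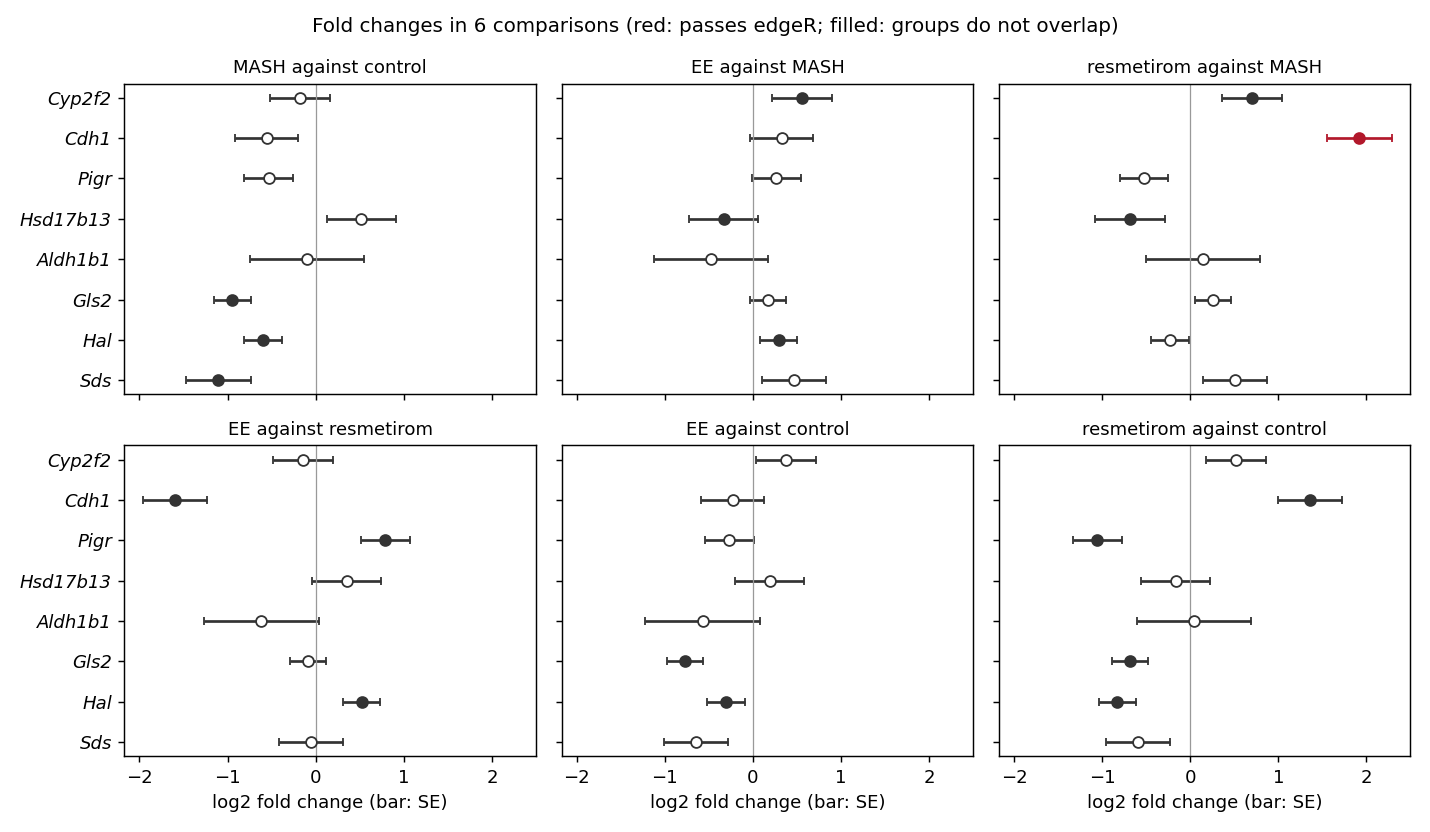
Log2 fold change of each of the 8 genes (horizontal axis, bars are the SE from edgeR with all 12 libraries) in 6 comparisons, 1 panel each. Filled points are genes whose groups of 3 livers did not overlap and the red point is Cdh1 in resmetirom against MASH, the single value that passed the test, at 1.92 ± 0.37.

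Markers of bile duct cells, which also carry Cdh1 and Pigr, were read beside this result. Of 10 listed markers all 10 were found and 9 were tested, and 0 passed in any of the 6 comparisons. Their summed level was 59.9 to 76.3 CPM in resmetirom livers, 41.8 to 94.0 CPM in MASH livers, 57.9 to 82.4 CPM in control livers and 35.2 to 47.6 CPM in EE livers. No marker was at 0 counts throughout a group, and the defining markers Epcam and Krt19 reached at most 3.35 and 3.015 CPM in any liver. Much of these sums was Spp1, which is also on the list of monocyte and macrophage markers, at 28.7 to 52.9 CPM in resmetirom and 24.1 to 61.4 CPM in MASH livers. The other 9 markers summed to 23.4 to 31.2 CPM in resmetirom and 17.65 to 32.6 CPM in MASH livers, so that the groups overlapped with and without Spp1.

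Resmetirom 1, the liver with the most Cdh1, stood apart in markers of other cells. Its 7 cell cycle genes summed to 70.1 CPM, against 30.9 and 22.7 CPM in resmetirom 2 and 3 and 28.003 to 31.004 CPM in MASH livers, and Mki67 was at 11.5 CPM there and at 0.899 and 0.769 CPM in the other two. Kupffer cell markers summed to 830.2 CPM in resmetirom 1, 352 and 412 CPM in resmetirom 2 and 3 and 337 to 414 CPM in MASH livers. Monocyte and macrophage markers summed to 291 CPM in resmetirom 1, 101 and 95.1 CPM in the other two and 129 to 141 CPM in MASH livers. Stellate cell markers summed to 771 CPM in resmetirom 1, 372 and 374 CPM in the other two and 340 to 388 CPM in MASH livers. In resmetirom against MASH 6 of 7 cell cycle genes, 9 of 10 Kupffer, 8 of 10 monocyte and macrophage and 8 of 10 stellate markers were positive, and 0 passed. Without resmetirom 1 the log2 fold change of Cdh1 was 1.70 ± 0.39 (adjusted p = 0.0677). Plasma and B cell genes summed to 95.3, 180 and 124 CPM in resmetirom 1, 2 and 3, all above the 10.7 to 14.4 CPM of MASH livers. The part of these lists in the result for Cdh1 was not tested.

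The difference between the treated groups was tested directly. None of the 8 genes passed in EE against resmetirom, where 0.307% of all genes passed (43 genes, and 1652 at an unadjusted p under 0.05). Cdh1 was lower in all EE than in all resmetirom livers, at −1.59 ± 0.36 (adjusted p = 0.101). DESeq2 called it, as it called 2.95% of all genes. Pigr and Hal were higher in all EE than in all resmetirom livers, at 0.79 ± 0.28 and 0.52 ± 0.21 (adjusted p = 0.285 and 0.366), and 8.70% of all genes were apart in that direction, beside 9.09% in the other. For Cyp2f2 the groups overlapped, at −0.15 ± 0.34 with 95% limits of −0.89 and 0.60.

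Comparisons with control livers show how far the treated livers stood from chow livers. They share the control livers with the comparison of MASH and control, so their values are not independent of it. None of the 8 passed in EE against control, where 0.1% of all genes passed (14 genes, and 2257 at an unadjusted p under 0.05). Gls2 was at −0.77 ± 0.20 (adjusted p = 0.130) and Hal at −0.31 ± 0.21 (adjusted p = 0.492), both lower in all EE than in all control livers, as 13.5% of genes were. DESeq2 called Gls2 there, and 4.41% of all genes. None passed in resmetirom against control, where 3.16% of all genes passed (442 genes, and 3203 at an unadjusted p under 0.05).

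In resmetirom against control, 4 of the 8 genes lay close to the threshold and were called by DESeq2, which called 11.1% of all genes. Cdh1 was at 1.36 ± 0.36 (edgeR, adjusted p = 0.0619), Hal at −0.83 ± 0.21 (adjusted p = 0.0568), Pigr at −1.06 ± 0.28 (adjusted p = 0.0595) and Gls2 at −0.68 ± 0.20 (adjusted p = 0.0815). Each of these had no overlap between the groups, with Cdh1 higher and the other 3 lower in resmetirom livers. Among all genes, 9.93% were apart and higher and 10.9% apart and lower. The median over the 8 was −0.38, against 0.02 over all genes.

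Set against the mean of the MASH livers on the log2(CPM + 0.5) scale, the 8 genes gave a profile for each liver. In control 2 and 3 the median over the 8 was 0.62 and 0.49, with 7 of 8 genes above the MASH mean in each. In control 1 it was 0.71, with 5 above, and Cyp2f2, Hsd17b13 and Aldh1b1 below at −0.99, −1.75 and −0.64. EE livers had medians of 0.15, 0.32 and 0.27, and resmetirom livers 0.21, 0.02 and 0.12. The small medians of resmetirom livers hid wide differences between genes: Cdh1 was at 2.42, 2.00 and 1.72, while Hal was at −0.65, −0.20 and 0.09 and Pigr at −0.88, −0.72 and −0.07. The medians of the control livers were the highest, though 3 of the 8 genes in control 1 lay below the MASH mean and none of the 8 passed in MASH against control.

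**Figure D3:**
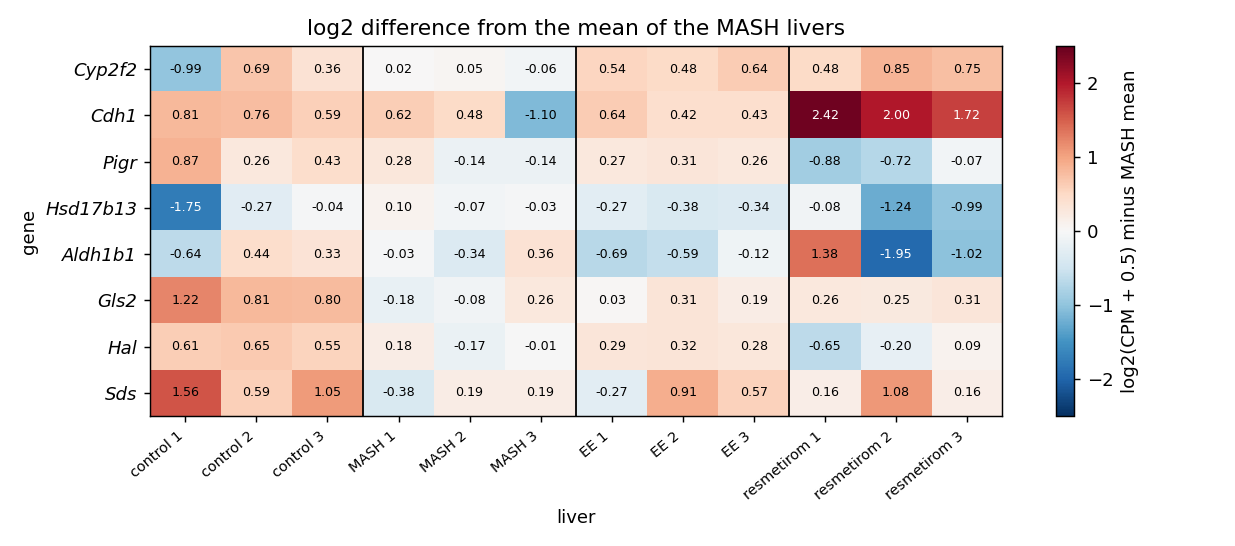
Difference of log2(CPM + 0.5) from the mean of the 3 MASH livers for each of the 8 genes (rows) in each of the 12 livers (columns), with colour from blue (lower) to red (higher). Cdh1 is red in all resmetirom livers (1.72 to 2.42), and Aldh1b1 runs from 1.38 in resmetirom 1 to −1.95 in resmetirom 2.

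The 8 genes did not share a profile. Hal and Pigr were the most alike, with a root mean square difference of 0.20 between their centred log2 profiles over the 12 livers, followed by Gls2 and Hal at 0.34 and Gls2 and Sds at 0.35. Cdh1 and Aldh1b1 were the least alike, at 1.27. Levels of all genes in a liver come from the same library, so these values describe the 12 livers and carry no test.

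Among 11090 genes with a mean of at least 1 CPM, the profile closest to Cdh1 was that of Btg3 (0.38), then Sort1 (0.47) and Igfbp2 (0.50), while Cdh1 itself had an SD of 0.90 over the 12 livers. Closest to Cyp2f2 were Polr1c (0.14), Rpl3 (0.15) and Eif3i (0.17), beside an SD of 0.51 of Cyp2f2 itself. Hsd17b13 was closest to Rragc (0.18), Nhlrc3 (0.19) and Ibtk (0.19), and Aldh1b1 to Postn (0.33), Ifit2 (0.35) and Ppl (0.35). For Gls2 the closest were Fam69a (0.18), Sipa1l3 (0.19) and Flcn (0.20), and for Sds Sorbs3 (0.25), Apbb3 (0.25) and Rps27rt (0.26). Hal was closest to Slc35e2 (0.12), Kcnn2 (0.15) and Zkscan1 (0.18). Pigr was closest to Pipox (0.17), Sdc2 (0.17) and the albumin gene Alb (0.19). All values are root mean square differences in log2 units over 12 livers.

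Another 20 genes known from portal hepatocytes were read beside the 8. In MASH against control 14 of the 20 were negative (median −0.39), 8 were lower without overlap and 2 higher, and 0 passed, where 9.41% of all genes were lower without overlap and 48.4% were positive. The urea cycle enzymes Ass1 and Arg1 were lower in all MASH than in all control livers, at −0.73 ± 0.26 and −0.99 ± 0.35 (adjusted p = 0.512 for each). Apoa4, an apolipoprotein, went the other way at 3.19 ± 0.53 (adjusted p = 0.160). In EE against MASH 14 of the 20 were positive (median 0.14) and 0 passed. In resmetirom against MASH 10 were positive and 10 negative (median 0.06), and 0 passed. Against control, resmetirom livers had higher Apoa4 and Cyp17a1 and lower Etnppl and Hsd17b6, the 4 of the 20 that passed (adjusted p = 0.0151, 0.0177, 0.0104 and 0.0188), where 3.16% of all genes passed.

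For Gls2, Hal and Sds, 25 other genes of amino acid breakdown and the urea cycle were listed, 9 of which are also among the 20 portal genes above. In MASH against control 18 of the 25 were negative (median −0.28), with 0 passing. In EE against MASH 21 were positive (median 0.29), and in resmetirom against MASH 15 were positive (median 0.18), with 0 passing in each. These comparisons share the MASH livers, so their opposite signs are not independent results. Sdsl, a close relative of Sds, was at 5.01 ± 0.650 CPM in MASH livers, 7.34 ± 0.975 in EE livers and 9.28 ± 2.74 in resmetirom livers. Amdhd1, which acts after Hal in histidine breakdown, was at 126 ± 16.9 CPM in MASH and 197 ± 67.9 CPM in control livers. Uroc1, another enzyme of histidine breakdown, overlapped between groups. It was at 287, 260 and 354 CPM in MASH, 418, 314 and 304 in control and 313, 271 and 320 in EE livers. Among 15 genes of the glucagon and fasting response, to which portal hepatocytes are exposed, 11 were negative in MASH against control (median −0.34). In EE and in resmetirom against MASH 10 were positive in each (medians 0.43 and 0.43). Irs2, an insulin receptor substrate, rose by 1.09 ± 0.21 in resmetirom against MASH (adjusted p = 0.0439), where 0.665% of all genes passed.

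For Hsd17b13, 18 other genes of lipid droplets were all positive in MASH against control (median 0.65), and 0 passed. In resmetirom against MASH 11 of the 18 were negative (median −0.29), and Plin4, a perilipin, fell by 3.37 ± 0.56 (adjusted p = 0.0245). Of 14 targets of SREBP1 and LXR, which are known to control Hsd17b13, 11 were negative in EE against MASH (median −0.51) and 10 in resmetirom against MASH (median −0.26), with 0 passing. For Aldh1b1, 14 other aldehyde dehydrogenases were tested, and 10 were negative in resmetirom against MASH (median −0.30, 0 passing). Aldh6a1 was lower in all resmetirom than in all MASH livers, at −1.03 ± 0.28 (adjusted p = 0.117), as 12.3% of all genes were.

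For Cdh1, 19 other genes of hepatocyte junctions were tested, and 0 passed in any of the 6 comparisons. In resmetirom against MASH 11 were positive and 8 negative (median 0.01). F11r, a tight junction protein, was at 80.1 ± 15.3 against 54.8 ± 2.92 CPM, and Cldn2, a claudin, at 48.4 ± 23.7 against 119.9 ± 9.38 CPM (adjusted p = 0.243 and 0.217). Ctnnb1, beta-catenin, which binds E-cadherin, lay between 132 and 184 CPM in resmetirom livers and between 157 and 167 CPM in MASH livers. Cdh2, N-cadherin, lay between 58.4 and 89.5 CPM in resmetirom and between 78.9 and 83.6 CPM in MASH livers, so that the ranges overlapped for both.

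For Pigr, 13 genes of IgA handling and of known inducers of Pigr were tested. Igha, the heavy chain of the IgA that Pigr carries, rose in resmetirom against MASH from 0.886 ± 0.217 to 25.6 ± 18.2 CPM, by 4.84 ± 0.72 on the log2 scale (adjusted p = 0.0155), and was the 1 gene of this list that passed. It ran from 9.84 to 45.6 CPM in resmetirom livers and from 0.710 to 1.13 CPM in MASH livers. MASH livers had the least Igha of the 4 groups, since control livers held 3.10 to 11.8 CPM and EE livers 1.90 to 5.99 CPM. Igha was lower in all MASH than in all control livers, at −2.75 ± 0.68 (adjusted p = 0.392), and higher in all EE than in all MASH livers, at 2.05 ± 0.68 (adjusted p = 0.595). Against control the resmetirom livers overlapped, at 2.09 ± 0.62 (adjusted p = 0.081). Jchain, which joins IgA dimers, was at 2.61 ± 0.59 in resmetirom against MASH (adjusted p = 0.0740). The change there was not limited to IgA. Of 8 tested genes of plasma and B cells 8 were positive (median 1.70), and 2 passed, Igha and Ighm. Ighm, another immunoglobulin gene, was at 3.69 ± 0.72 (adjusted p = 0.0439), where 0.665% of all genes passed. Pigr itself was at 676 ± 213.5 CPM in resmetirom and 972 ± 172.4 CPM in MASH livers.

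Portal genes were also set against 15 genes of central hepatocytes. In resmetirom 1 the median of the central genes was −1.82 against the MASH mean, with all 15 below it, and in resmetirom 2 and 3 it was −0.49 and −0.05. The median of the 8 portal genes minus that of the 15 central genes was 2.03 in resmetirom 1, 1.39 in control 1 and between −0.19 and 0.57 in the 10 other livers. Control 1 and resmetirom 1 were thus the livers with the widest gap, and in both the central genes were low. Of the central genes Oat, an ornithine aminotransferase, fell in resmetirom against MASH by 2.66 ± 0.31 (adjusted p = 0.0089), the 1 of 15 that passed. In that comparison 0.665% of all genes passed. In resmetirom against control 3 of the 15 passed, all lower in resmetirom livers, where 3.16% of all genes passed. These were Oat, Rgn and Cyp2c29 (adjusted p = 0.0035, 0.0366 and 0.0400). In MASH against control 10 of the 15 were positive (median 0.08) and 0 passed.

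Ratios of a portal to a central gene were also taken within each liver. The log2 ratio of Gls2, which breaks glutamine down, to Glul, which makes it, was −0.69, −1.56 and −1.36 in control livers and −2.70, −3.10 and −3.01 in MASH livers. EE livers had −2.54, −2.35 and −2.74, and resmetirom livers −0.42, −2.29 and −2.35. Control livers were above all MASH and EE livers, and resmetirom 1 was the highest of the 12. In resmetirom 1, 2 and 3 Gls2 was at 231, 229.7 and 239 CPM, and Glul at 308, 1124 and 1218 CPM. The high ratio of resmetirom 1 thus went with its low Glul. The log2 ratio of Cyp2f2 to Cyp2e1 was −3.15, −3.28 and −3.53 in MASH livers, −3.10, −2.33 and −2.90 in control livers and −3.00, −3.44 and −3.29 in EE livers. Resmetirom livers had 0.09, −1.90 and −2.03, all above the 9 others. Cyp2e1 was at 956, 4898 and 4974.5 CPM in resmetirom 1, 2 and 3. It was at 6550 to 8054 CPM in MASH, 3144.5 to 6993.5 in control and 8460 to 11141 in EE livers. How often ratios of other genes separate the groups was not tested.

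**Figure D4:**
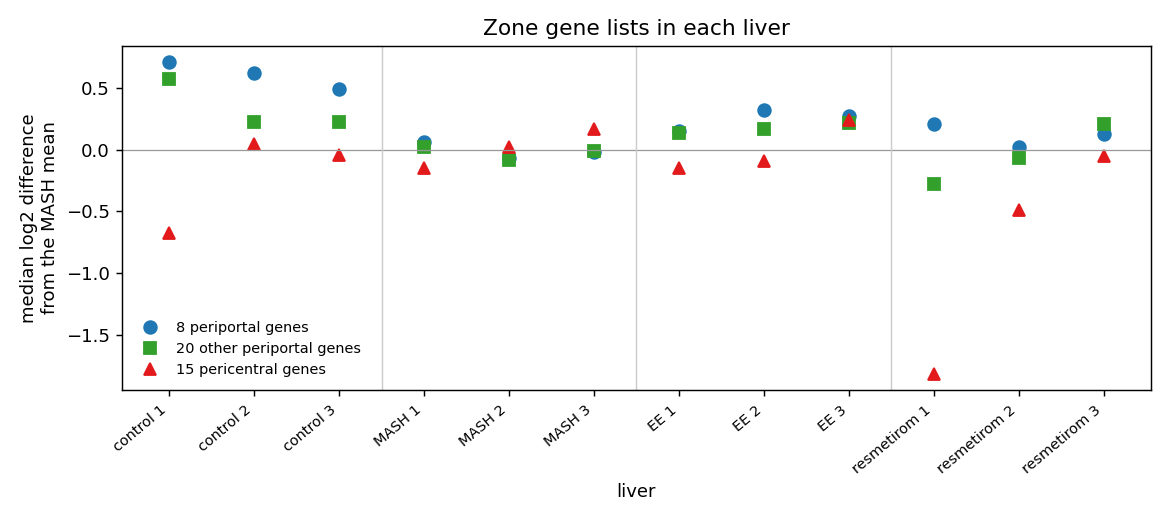
Median difference of log2(CPM + 0.5) from the MASH mean (vertical axis) in each liver (horizontal axis) for the 8 portal genes (circles), 20 other portal genes (squares) and 15 central genes (triangles). In control livers the circles lie at 0.49 to 0.71, and the triangle of resmetirom 1 lies at −1.82.

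Of 19 genes that set the zones of the lobule or act as hepatocyte transcription factors, 11 were negative in MASH against control (median −0.11), 15 in EE against MASH (median −0.23) and 10 in resmetirom against MASH (median −0.01), and 0 passed in these. Hnf4a, a hepatocyte nuclear receptor, was at 538 ± 33.8 CPM in control, 367 ± 32.5 in MASH, 552 ± 75.9 in EE and 445 ± 87.1 in resmetirom livers. Control and EE livers were each above all MASH livers for Hnf4a (adjusted p = 0.519 and 0.610). For Hal they were too (adjusted p = 0.512 and 0.809). Of all genes, 9.41% were apart and lower in MASH against control, and 16.7% apart and higher in EE against MASH.

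Reads of overlapping genes could enter the counts of 3 of the 8, since the counting strand was not given in the sources used here. In an older annotation (GENCODE M21 on GRCm38) Gls2 overlaps Spryd4 on the opposite strand, which lay between 16.8 and 30.9 CPM. Sds overlaps Plbd2, at 59.2 to 88.2 CPM, and Gm15690, at 0.201 CPM or less. Cyp2f2 overlaps Gm15883, at 2.31 CPM or less. How far their reads enter the values of Gls2, Sds and Cyp2f2 was not tested.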

How the data were processed

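Poly(A) RNA of 12 livers was sequenced as paired 150-base reads from stranded mRNA libraries, per the labels' protocols. The submitters' processing notes name fastp and the build GRCm39. For the aligner, counter, annotation and strand setting nothing is given in the sources used here. Values were the authors' expected counts of each gene, deposited unscaled, and were rounded to whole numbers. Of the 8 genes, 7 had whole values in all 12 livers and Pigr in 11. Symbols and lengths came from GRCm38 tables. At the scaled library sizes, 1 CPM stands for 9.95 to 26.0 counts.

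Tests were run with edgeR 4.0.16 in R 4.3.3 (filterByExpr, TMM scaling, quasi-likelihood F test with robust fitting) in 1 fit of all 12 libraries with 8 residual degrees of freedom, adjusted over all 13988 tested genes at a threshold of 0.05. The SE is the size of the log2 fold change divided by the square root of F. DESeq2 1.42.0 and limma 3.58.1 gave alternatives, and shares called by DESeq2 are of genes with an adjusted p. The members and lists were chosen with earlier results of these data known, and lists were described without a test. Named were the 8 genes, for each the 3 genes with the closest profile, and up to 4 genes with the smallest p in each list and in the comparisons of MASH with control and of each treatment with MASH; Cdh2, Ctnnb1 and genes given for single checks were chosen beyond this rule.

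The labels do not say whether replicates are separate mice, so p-values measure the spread between these samples. Deviations of EE and MASH livers with the same replicate number correlated at 0.279, 0.219 and 0.213, each over 0.1, so these numbers were taken as pairs. No other comparison met that rule. In resmetirom against control the correlations were as large in size but of mixed sign, at −0.304, −0.388 and 0.305. The rule used the same data as the tests, so it cannot show that the livers were paired. On simulated data of 13758 genes, the fit called 12% of 2-fold and 73% of 4-fold changes for resmetirom against MASH, and 7% and 68% for EE against MASH, each with 5 unchanged genes.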

Additional observations from a re-analysis of the deposited data

How the results depend on the processing

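Of 1392 values of single genes under alternatives, 1286 kept their direction and their side of the threshold, 42 passed it, 14 no longer passed and 50 changed sign. The cause of each change was not tested. Upper quartile and relative log expression scaling moved no call of the 8 genes. In MASH against control the count of the 8 that passed was 0, and 1 with DESeq2 and 2 with voom quality weights. In EE against MASH it was 0, and 1 in the compared groups alone and with quality weights, and 4 with the replicate block in the compared groups alone, also with length and GC offsets. Lengths and GC content were known for 95.5% of tested genes. In resmetirom against MASH it was 1, and 0 in the compared groups alone, there with the replicate block (with and without offsets) and there with offsets, and it was 0 to 1 without each replicate, 3 with quality weights and 4 without control 1 and resmetirom 1. In EE against resmetirom it was 0, and 1 with DESeq2, with no filter, without control 1 and resmetirom 1 and without control 1 and MASH 3, and 0 to 1 without each replicate. In EE against control it was 0, and 1 with DESeq2 and with quality weights. In resmetirom against control it was 0, and 4 with DESeq2 and with quality weights, 3 without control 1 and resmetirom 1, 1 with voom, with no filter, with a mean of at least 1 CPM, offsets, without control 1 and resmetirom 2 or without control 1 and MASH 3, and 0 to 2 without each replicate. Over all genes, DESeq2 called 87, 28, 657, 410, 589 and 1545 genes in MASH against control, EE against MASH, resmetirom against MASH, EE against resmetirom, EE against control and resmetirom against control, and edgeR 2, 1, 93, 43, 14 and 442. With quality weights these were 564, 1340, 834, 249, 2561 and 2136. In resmetirom against control the share of all genes that passed was 3.16%, and 18.1% without control 1 and resmetirom 1, 7.46% without control 1 and resmetirom 2, 2.67% without control 1 and MASH 3, 2.53% with voom, 1.92% with no filter, 4.15% with a mean of at least 1 CPM and 1.76% with offsets. In EE against resmetirom it was 0.307%, and 0.63% with no filter, 1.7% without control 1 and resmetirom 1 and 0.347% without control 1 and MASH 3. In EE against MASH it was 13.9% with block and offsets in the compared groups alone. Shares of all genes without each single replicate are not given here, so a call gained in those fits may go with more calls among all genes.

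Most changes of sign were of Aldh1b1. In resmetirom against MASH its log2 fold change was −0.083 with the replicate block, −0.59 with the block in the compared groups alone, −0.81 with block and offsets there, −0.0043 with offsets there, −0.56 with voom, −0.77 with quality weights, −1.46 without control 1 and resmetirom 1, and −1.46 to 0.60 without each replicate. In resmetirom against control it was −0.28 with the block, −0.73 with the block in the compared groups alone, −1.05 with block and offsets there, −0.59 with voom, −1.23 with quality weights, −0.19 with offsets, −0.20 with offsets in the compared groups alone, −1.82 without control 1 and resmetirom 1, −0.22 without control 1 and MASH 3, and −1.56 to 0.51 without each replicate. In EE against resmetirom it was 0.14 with the block in the compared groups alone, 0.25 with block and offsets there, 0.089 with voom, 0.40 with quality weights, 0.99 without control 1 and resmetirom 1, and −1.07 to 0.99 without each replicate. In MASH against control it was −0.36 to 0.10 without each replicate. Sds in EE against resmetirom was 0.31 without control 1 and resmetirom 2, 0.16 with quality weights, 0.18 with offsets, 0.19 with offsets in the compared groups alone, 0.12 with block and offsets there, and −0.31 to 0.34 without each replicate. Gls2 there was 0.038 with offsets, 0.047 with offsets in the compared groups alone and 0.045 with block and offsets. Hsd17b13 in EE against control was −0.18 without control 1 and resmetirom 2, −0.14 with quality weights, −0.16 without control 1 and resmetirom 1 and without control 1 and MASH 3, and −0.16 to 0.51 without each replicate, and in resmetirom against control it was −0.60 to 0.15. Cyp2f2 in MASH against control was 0.028 with voom and −0.53 to 0.17 without each replicate. Cdh1 in EE against MASH was −0.049 without control 1 and MASH 3 and −0.053 to 0.61 without each replicate. Voom, offsets, and leaving out control 1 together with resmetirom 1 or MASH 3 were chosen after seeing the data. Outside EE against MASH the replicate numbers did not meet the rule for pairs, and a call lost under the block there does not show a smaller effect. In EE against MASH a call gained under the block rests on pairs that the labels do not name. Between groups of 3 livers a 2-fold change was mostly missed in simulated data, so that the values that did not pass do not show that levels were alike.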
